A study of Mus musculus with 24 samples.

Results

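Expression of the 5 dopamine receptor genes and of Ppp1r1b, which encodes DARPP-32, was followed in projection neurons of the developing mouse cortex. All 6 genes were found by name among the 32310 entries of the deposited expression table, where the D1 receptor gene carries its older symbol Drd1a. The neurons had been sorted by FACS from cortex of CD1 mice, an outbred strain, and the labels name no transgene, mutation or treatment for any group. Neurons of 3 subtypes, callosal (joining the hemispheres), subcerebral (reaching targets below the cerebrum) and corticothalamic (reaching the thalamus), were each collected at embryonic days 15, 16 and 18 (E15, E16, E18) and at postnatal day 1 (P1). There were 24 libraries, with 2 in every one of the 12 groups, and the table gives 1 pooled value per group, read as FPKM because the authors used Cufflinks, a level scaled to transcript length and to library size. The sources used here do not give the sort markers, the area of cortex, or whether the 2 libraries came from separate animals.

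Dopamine receptors are G-protein-coupled receptors in a pair of classes. The D1 class (Drd1a, Drd5) couples to Gs and Golf proteins and raises cyclic AMP, while the D2 class (Drd2, Drd3, Drd4) couples to Gi and Go proteins and lowers it. DARPP-32 stands downstream: phosphorylated by protein kinase A it inhibits protein phosphatase 1, and phosphorylated by Cdk5 it inhibits protein kinase A instead. The protein is best known from striatal projection neurons, and in the cortex D1 receptors and DARPP-32 are known from deep-layer neurons, which receive dopamine fibres from the midbrain.

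Promoter sequence is shown for 4 receptor genes whose levels differed in order between the subtypes. RefSeq (build GRCm38.p6) gave promoter windows for 5 of the 6 members, Ppp1r1b being the one without an entry. Drd1, the current symbol of Drd1a, has 2 annotated starts, and the upstream bases of both are shown with those of Drd2, which was highest in corticothalamic neurons at 3 of the 4 stages, of Drd4, which was lowest in them at all 4, and of Drd5, which was highest in them at all 4. Each run is printed 5′ to 3′ on the gene's strand and stops before any annotated exon base of its gene that falls in its window. By its coordinates, the second Drd1 run lies downstream of the first start. Capitals mark GC boxes (GGGCGG on either strand), the binding motif of Sp1-type factors.
Drd1, first start, chr13:54055706-54055908, minus strand: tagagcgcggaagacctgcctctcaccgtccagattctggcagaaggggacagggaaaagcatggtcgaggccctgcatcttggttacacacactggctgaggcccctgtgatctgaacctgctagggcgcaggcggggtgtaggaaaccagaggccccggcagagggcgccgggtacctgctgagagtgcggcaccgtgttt
Drd1, second start, chr13:54054781-54055030, minus strand: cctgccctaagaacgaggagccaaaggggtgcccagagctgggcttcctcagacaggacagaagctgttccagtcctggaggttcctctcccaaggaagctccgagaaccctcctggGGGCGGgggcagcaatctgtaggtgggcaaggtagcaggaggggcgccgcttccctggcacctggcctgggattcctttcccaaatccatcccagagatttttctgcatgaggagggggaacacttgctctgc
Drd2, chr9:49340153-49340359, plus strand: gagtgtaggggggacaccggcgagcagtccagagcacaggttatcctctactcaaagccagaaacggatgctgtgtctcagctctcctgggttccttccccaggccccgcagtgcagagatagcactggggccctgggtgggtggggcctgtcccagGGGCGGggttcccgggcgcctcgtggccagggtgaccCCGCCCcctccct
Drd4, chr7:141291768-141291973, plus strand: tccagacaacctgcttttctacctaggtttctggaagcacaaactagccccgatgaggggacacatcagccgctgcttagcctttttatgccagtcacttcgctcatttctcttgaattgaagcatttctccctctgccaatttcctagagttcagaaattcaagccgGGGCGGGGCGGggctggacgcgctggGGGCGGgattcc
Drd5, chr5:38319259-38319366, plus strand: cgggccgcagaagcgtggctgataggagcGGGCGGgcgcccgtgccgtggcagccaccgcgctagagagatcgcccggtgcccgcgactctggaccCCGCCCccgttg
The first Drd1 window held 0 GC boxes, where 25.2% of all 32841 promoter windows cut to the same 203 bases held at least 1. The second Drd1 window held 1 (32.8% of windows of 250 bases). Upstream of Drd2 there were 2, and upstream of Drd4 there were 3, with matches that overlap each other (26.0% and 25.8% of windows of those lengths held at least 1). The Drd5 window, of 108 bases, held 2 (11.4% of windows of that length held at least 1). For these shares every window was cut to its first bases from the 5′ end, whatever its exons. The runs shorter than 250 bases end at an annotated exon or gene start. Their shares are therefore not matched for distance to a start. The cyclic AMP response element, TGACGTCA, and its half-site, TGACG, were searched on both strands and had 0 matches in these 5 windows. Such matches are letters in a sequence, and no binding was measured.

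Marker lists were read against the labels of the sorted groups with the limma fit described with Drd1a. Of 8 callosal markers, 7 were higher in callosal neurons than in each other subtype. Of 10 subcerebral markers, 8 were higher in subcerebral than in callosal neurons and 7 than in corticothalamic neurons, and all 8 corticothalamic markers were higher in corticothalamic neurons than in each other subtype. At E15 and E16 some markers went against the label. At E15 Crym was 8.66 FPKM in subcerebral and 16.4 FPKM in corticothalamic neurons, and Pcp4 6.09 and 25.8 FPKM. The callosal marker Lpl was then 20.4 FPKM in callosal, 58.0 FPKM in subcerebral and 83.3 FPKM in corticothalamic neurons. At E16 Crym was 42.6 FPKM in subcerebral and 59.6 FPKM in corticothalamic neurons, and Pcp4 5.69 and 21.4 FPKM. Lpl was then 25.8 FPKM in callosal, 11.4 FPKM in subcerebral and 59.2 FPKM in corticothalamic neurons. In FPKM, Cux2 was 59.1 to 104 in callosal neurons and at most 6.80 elsewhere, Bcl11b was 104 to 168 in subcerebral neurons and at most 97.1 elsewhere, and Tle4 was 192 to 212 in corticothalamic neurons. At E15 the subcerebral group also carried corticothalamic genes. The sum of 8 corticothalamic markers was 436 FPKM there, against 156, 89.2 and 78.9 FPKM in subcerebral neurons at E16, E18 and P1, and 813 to 934 FPKM in corticothalamic neurons. Column sums ran from 355965 to 473871 FPKM, and between 12294 and 12838 entries per group reached 1 FPKM. The depth behind the values is unknown, so no counting interval can be given. Among markers of other cells, those of microglia moved with the callosal label. Of 8 microglia markers tested, callosal neurons had 7 at a higher level than subcerebral and 7 than corticothalamic neurons. They had 1, Aif1, at a lower level than corticothalamic neurons. The microglia sums were 5.05 to 41.5 FPKM in callosal, 4.13 to 7.41 in subcerebral and 5.71 to 8.96 in corticothalamic neurons. Of 9 progenitor markers tested, callosal neurons had 4 at a higher level than subcerebral neurons (44.4% against 29.3% of all genes). They had 2 at a higher level than corticothalamic neurons (22.2% against 31.3%). In subcerebral neurons 5 were lower than in corticothalamic neurons (55.6% against 27.5%). Of 12 listed, 8 had their highest value in E15 corticothalamic neurons, where 8.01% of all genes above 0 did. E15 callosal neurons had 3 (9.24%) and P1 subcerebral neurons 1 (17.6%). Of 3 Cajal-Retzius markers 2 passed between callosal and subcerebral neurons, higher in the former, and the 1 vascular marker tested passed none of the subtype comparisons. The part of these cells in the levels of the members was not tested.

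**Figure D1:**
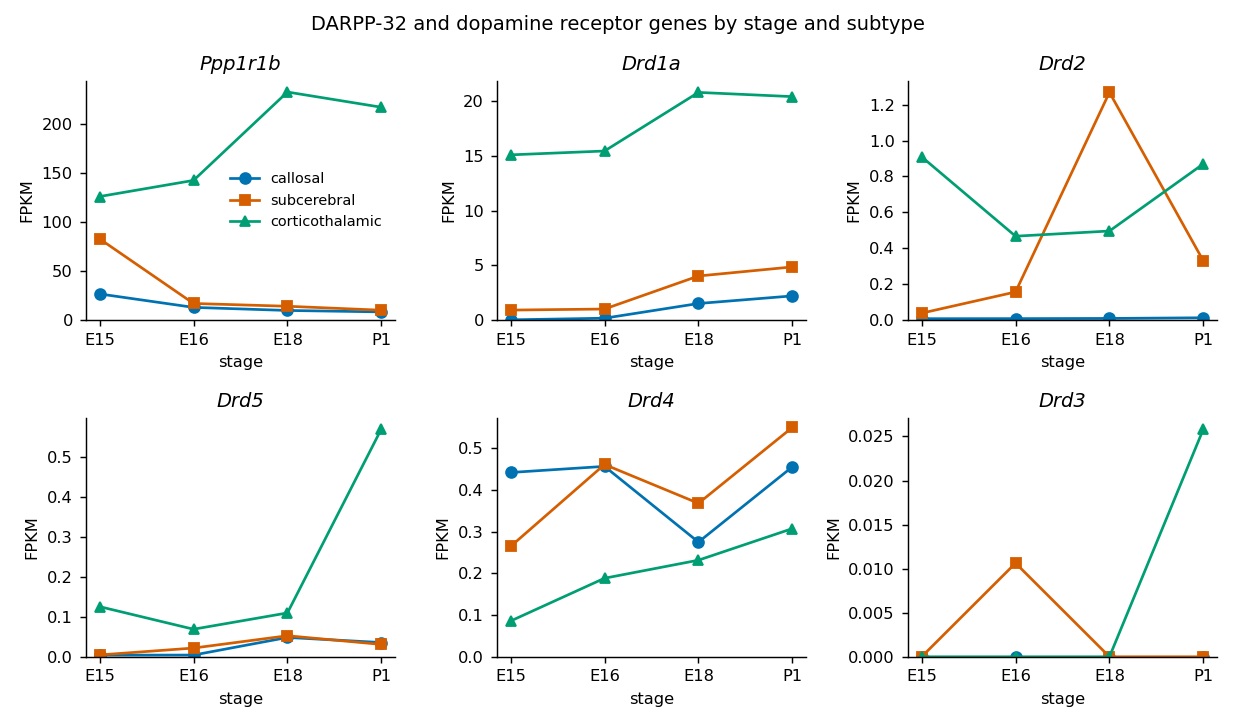
Expression in FPKM (y axis, linear, a separate scale for each gene) of Ppp1r1b and the 5 dopamine receptor genes against stage (x axis, evenly spaced) in callosal, subcerebral and corticothalamic neurons. Each point is the authors' pooled value of a group and has no error bar. Corticothalamic neurons had the highest Ppp1r1b, Drd1a and Drd5 at all 4 stages and the lowest Drd4, and Drd3 was listed at 0 in 10 of the 12 groups.

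Drd1a was the most abundant receptor gene in corticothalamic neurons, where it stood at 15.1, 15.5, 20.8 and 20.4 FPKM from E15 to P1. In subcerebral neurons it was 0.915, 1.01, 4.03 and 4.86 FPKM at the same stages. In callosal neurons it was 0.0240, 0.173, 1.52 and 2.21 FPKM. The corticothalamic values lay above every value of the other subtypes, and at each of the 4 stages the order was corticothalamic, subcerebral, callosal. Averaged over the 4 stages, with the SD between stages, the levels were 17.96 ± 3.09 FPKM in corticothalamic, 2.71 ± 2.04 FPKM in subcerebral and 0.982 ± 1.06 FPKM in callosal neurons. The ranges of the last pair overlap.

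The subtypes were compared in limma on log2(FPKM + 1), in a model that adds a stage effect and a subtype effect, over the 13946 genes that reached 1 FPKM in 2 or more groups. Of the 6 members only Drd1a and Ppp1r1b entered this fit. Drd1a was lower in callosal than in corticothalamic neurons by a log2 difference of -3.41 ± 0.21 (standard error; limma adjusted p = 3.19e-05), and lower in subcerebral than in corticothalamic neurons by -2.52 ± 0.21 (limma adjusted p = 0.000753). Between callosal and subcerebral neurons the difference was -0.89 ± 0.21 (limma adjusted p = 0.0172). This last call was lost when any of 5 parts of the data was left out: the adjusted p was 0.0689 without E16, 0.0982 without E18, 0.0621 without the E16 callosal value, 0.0670 without the E18 subcerebral value and 0.0634 without the P1 subcerebral value. In this fit each group has 1 value, and the 3 subtypes share 1 error. That error is the unevenness over the stages of all 3 subtype differences, and not the spread between libraries. By stage, callosal minus subcerebral was -0.9032 at E15, -0.779 at E16, -0.9995 at E18 and -0.8682 at P1. Callosal minus corticothalamic went from -3.976 at E15 to -2.739 at P1. A fit of callosal and subcerebral neurons alone gave a Drd1a difference of -0.89 ± 0.08 (limma adjusted p = 0.00475).

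Across all genes tested, 29.3% passed between callosal and subcerebral neurons, 31.3% between callosal and corticothalamic neurons, and 27.5% between subcerebral and corticothalamic neurons. Of the 2 members tested, 1, 2 and 2 passed in these comparisons. By direction, the shares of all genes were 14.1% higher and 15.2% lower for callosal minus subcerebral, 15.3% and 16% for callosal minus corticothalamic, and 14.7% and 12.8% for subcerebral minus corticothalamic neurons. The counts for all gene lists are to be set against these shares.

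Drd1a was also higher at P1 than at E15, by 1.23 ± 0.25 on the log2 scale over the 3 subtypes (limma adjusted p = 0.00234), in a comparison that 67.4% of all genes passed, 33.8% as higher and 33.6% as lower at P1. Progenitor markers moved with stage too: 8 of 9 tested were lower and 1 higher at P1, and their sum in corticothalamic neurons was 66.0 FPKM at E15 and 9.09 FPKM at P1. Their part in the stage difference was not tested. The amounts were unequal. From E15 to P1 the ratio of FPKM values was 1.35 in corticothalamic, 5.32 in subcerebral and 92.4 in callosal neurons, where the E15 value is close to 0. The ratio of corticothalamic to subcerebral level was accordingly 16.5 at E15, 15.3 at E16, 5.16 at E18 and 4.20 at P1. A linear term for the order of the 4 stages in each subtype, added after the values were seen, gave a corticothalamic trend lower than the callosal one by -0.44 ± 0.08 per stage step (limma adjusted p = 0.0204), and lower than the subcerebral one by -0.45 ± 0.08 (limma adjusted p = 0.0165). Of all genes, 10.2% and 14.9% passed these tests. With any 1 stage left out both differences missed the threshold, with adjusted p from 0.0532 to 0.226.

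Drd5, the other receptor of the D1 class, was far less abundant. In corticothalamic neurons it was 0.126, 0.0691, 0.110 and 0.571 FPKM from E15 to P1. In subcerebral neurons it was 0.00464, 0.0219, 0.0528 and 0.0310 FPKM, and in callosal neurons 0.00407, 0.00433, 0.0485 and 0.0358 FPKM. Every corticothalamic value lay above every value of the other subtypes, and the P1 value stood apart from the earlier ones. At P1 the corticothalamic level was 15.95 times the callosal and 18.4 times the subcerebral level. Drd5 did not reach 1 FPKM in any group. In a fit of all 24570 genes above 0, without the filter, its difference was -0.23 ± 0.09 for callosal minus corticothalamic neurons (limma adjusted p = 0.112) and -0.23 ± 0.09 for subcerebral minus corticothalamic neurons (limma adjusted p = 0.126). Neither passed. A gene on the opposite strand, Gm26560, overlaps Drd5 in the GENCODE M21 annotation, and the sources used here do not say whether counting used strand, so reads of the pair cannot be told apart.

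Drd2, the main receptor of the D2 class, was lowest in callosal neurons, though only their difference from corticothalamic neurons passed, as given below. Its level in callosal neurons was 0.00778, 0.00818, 0.00923 and 0.0129 FPKM from E15 to P1. Corticothalamic neurons had 0.909, 0.467, 0.496 and 0.870 FPKM. Subcerebral neurons had 0.0386, 0.157, 1.27 and 0.330 FPKM. Callosal values lay below all others at every stage. The E18 subcerebral value was the highest of the 12 and the only one to reach 1 FPKM. It turned the order of the other pair, which at E15, E16 and P1 had corticothalamic above subcerebral neurons by ratios of 23.6, 2.98 and 2.64.

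Some genes of striatal projection neurons, in which Drd2 is abundant, peaked in the same E18 subcerebral group. Of 16 striatal markers 7 had their highest value there (Tac1, Six3, Isl1, Ebf1, Rarb, Sp9 and Zfp503), where 5.67% of all genes above 0 did. Tac1, a neuropeptide gene of one striatal class, was 3.49 FPKM in that group and 0.551 FPKM or less in the 11 others. Isl1, a homeobox gene of the same class, was 0.592 FPKM there and at most 0.134 FPKM elsewhere. Other striatal markers did not peak there. Adora2a was highest in E15 subcerebral neurons, at 1.36 FPKM, where Drd2 was 0.0386 FPKM, and was 1.31 FPKM in E18 subcerebral neurons. Gpr6 was highest in E15 corticothalamic neurons, at 0.240 FPKM, and was 0.224 FPKM in E18 subcerebral neurons. Penk was 0.899 FPKM in E18 subcerebral and 4.43 FPKM in E18 corticothalamic neurons. All 16 markers summed to 53.2 FPKM in E18 subcerebral neurons, 45.1 to 57.1 FPKM in corticothalamic and 25.4 to 37.4 FPKM in callosal neurons. Rgs9 and Pde10a were expressed in all 12 groups. Rgs9 was highest in corticothalamic neurons at each stage. Pde10a was near level, with means over stages of 22.7 FPKM in corticothalamic, 21.4 FPKM in subcerebral and 19.6 FPKM in callosal neurons. At E18 Pde10a was 22.7 FPKM in subcerebral and 22.6 FPKM in corticothalamic neurons. The 14 other markers summed to 18.9 FPKM in E18 subcerebral neurons and to 3.40 to 7.72 FPKM in the other subcerebral groups. In corticothalamic neurons these 14 summed to between 4.39 and 10.8 FPKM. In callosal neurons the sum was 13.1 FPKM at E15, where Drd2 was 0.00778 FPKM, and 3.39 to 4.12 FPKM later. Subcerebral Drd1a was 4.03 FPKM at E18 against 1.01 FPKM at E16, and subcerebral Ppp1r1b 14.1 against 16.9 FPKM. The part of striatal neurons in the Drd2, Drd1a and Ppp1r1b values was not tested. In corticothalamic neurons Isl1 was at most 0.0145 FPKM, Six3 at most 0.00841 FPKM and Tac1 at most 0.222 FPKM, while Penk, a neuropeptide gene of the striatal class that holds Drd2, was 4.43 FPKM at E18 and 4.96 FPKM at P1, its highest values. Pdyn was also highest in corticothalamic neurons at P1, at 0.385 FPKM, but was close to that in E18 subcerebral neurons, at 0.374 FPKM. Before P1 it was 0.0554 to 0.0947 FPKM in corticothalamic neurons.

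**Figure D2:**
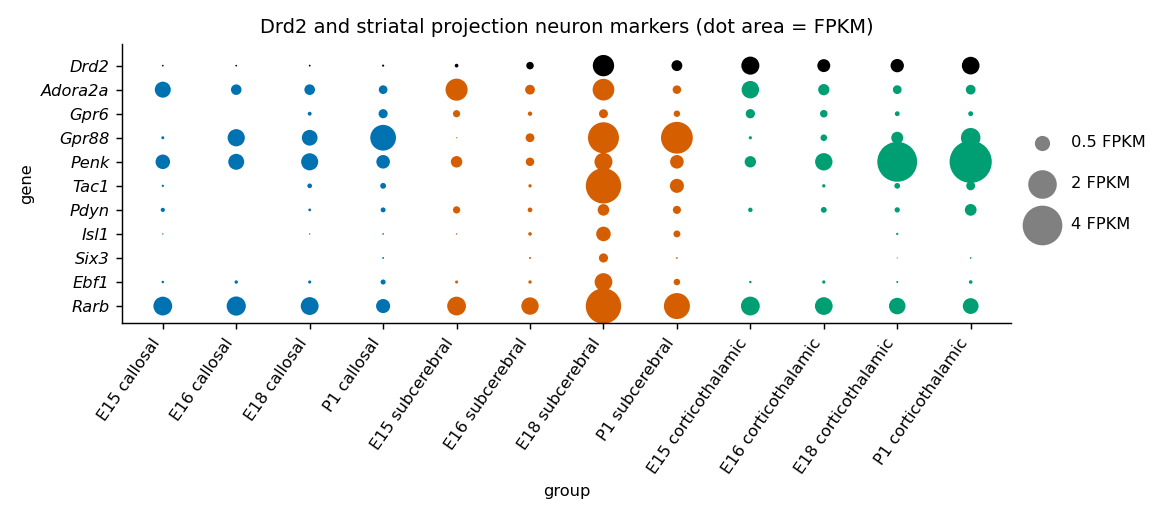
Expression of Drd2 (black) and 10 striatal projection neuron markers (rows) in the 12 groups (columns), with dot area proportional to FPKM and colour marking the subtype. The E18 subcerebral group held the highest Drd2, 1.27 FPKM, and the highest Tac1, Isl1, Six3, Ebf1 and Rarb, while Penk was highest in corticothalamic neurons at P1.

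Without the filter on low values, Drd2 was lower in callosal than in corticothalamic neurons by -0.73 ± 0.21 (limma adjusted p = 0.0458, a comparison passed by 19.2% of the genes in that fit). With the E18 subcerebral value left out the difference was -0.73 ± 0.10 (limma adjusted p = 0.00477). Between subcerebral and corticothalamic neurons it was -0.28 ± 0.21 (limma adjusted p = 0.404), and -0.54 ± 0.11 without that value (limma adjusted p = 0.0568). For callosal minus subcerebral neurons it was -0.45 ± 0.21 (limma adjusted p = 0.18, with 16.6% of those genes passing), and -0.18 ± 0.11 without that value (limma adjusted p = 0.343).

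Drd4, of the D2 class and known from the cortex, lay between 0.0858 and 0.550 FPKM in all 12 groups. Across the stages, corticothalamic neurons had 0.0858, 0.188, 0.232 and 0.307 FPKM. Subcerebral neurons had 0.265, 0.461, 0.368 and 0.550 FPKM, and callosal neurons 0.442, 0.457, 0.275 and 0.456 FPKM. Corticothalamic neurons were the lowest at each stage, though their P1 value lay above the lowest values of both other subtypes. Callosal and subcerebral neurons did not separate: their means over stages were 0.407 ± 0.088 and 0.411 ± 0.123 FPKM (SD between stages). Without the filter, Drd4 differed by 0.23 ± 0.06 for callosal minus corticothalamic (limma adjusted p = 0.0394) and by 0.23 ± 0.07 with the E18 subcerebral value left out (limma adjusted p = 0.0637). For subcerebral minus corticothalamic neurons it was 0.23 ± 0.06 (limma adjusted p = 0.0488, in a comparison that 13.6% of those genes passed), and 0.23 ± 0.07 without that value (limma adjusted p = 0.144).

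Drd3, the third member of the D2 class, was listed at 0 in 10 groups. Its other values were 0.0106 FPKM in subcerebral neurons at E16 and 0.0258 FPKM in corticothalamic neurons at P1. Because an entry of 0 in a table without counts may be an estimate that failed, Drd3 is given no fold.

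FPKM values are per length of transcript, so levels can be compared between genes. In corticothalamic neurons Drd1a made up 92.0% to 96.1% of the summed receptor FPKM. In callosal neurons its share was 5.01% at E15, 26.9% at E16, 82.0% at E18 and 81.4% at P1. At E15 and E16 Drd4 was the most abundant receptor gene of callosal neurons. The summed receptor level was 16.2 to 22.2 FPKM in corticothalamic, 1.22 to 5.77 FPKM in subcerebral and 0.478 to 2.72 FPKM in callosal neurons.

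Ppp1r1b was the most abundant member in all 12 groups. In corticothalamic neurons it was 126, 142, 232 and 217 FPKM from E15 to P1, and between 98.7% and 99.5% of all entries in those columns were lower. In subcerebral neurons it was 82.7, 16.9, 14.1 and 10.1 FPKM. In callosal neurons it was 26.6, 12.9, 9.79 and 8.33 FPKM. The corticothalamic values lay above all the others. Subcerebral exceeded callosal values at each stage, by ratios of 3.11 at E15 and between 1.21 and 1.44 later. Averaged over stages the levels were 179 ± 53.0 FPKM in corticothalamic, 30.9 ± 34.6 FPKM in subcerebral and 14.4 ± 8.35 FPKM in callosal neurons (SD between stages).

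Ppp1r1b was lower in callosal than in corticothalamic neurons by -3.63 ± 0.51 (limma adjusted p = 0.00141), and lower in subcerebral than in corticothalamic neurons by -2.96 ± 0.51 (limma adjusted p = 0.00774). The second call was lost without E16 (adjusted p = 0.0719), without E18 (0.0869) and without P1 (0.0510). Callosal and subcerebral neurons differed by -0.67 ± 0.51, which did not pass (limma adjusted p = 0.344), and by -0.12 without the E15 subcerebral value (limma adjusted p = 0.829). In bulk samples, fewer cells of a type that express a gene and less RNA per cell cannot be told apart. A noncoding gene, 1700003D09Rik, overlaps Ppp1r1b on the opposite strand in GENCODE M21, with the same limit as for Drd5.

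**Figure D3:**
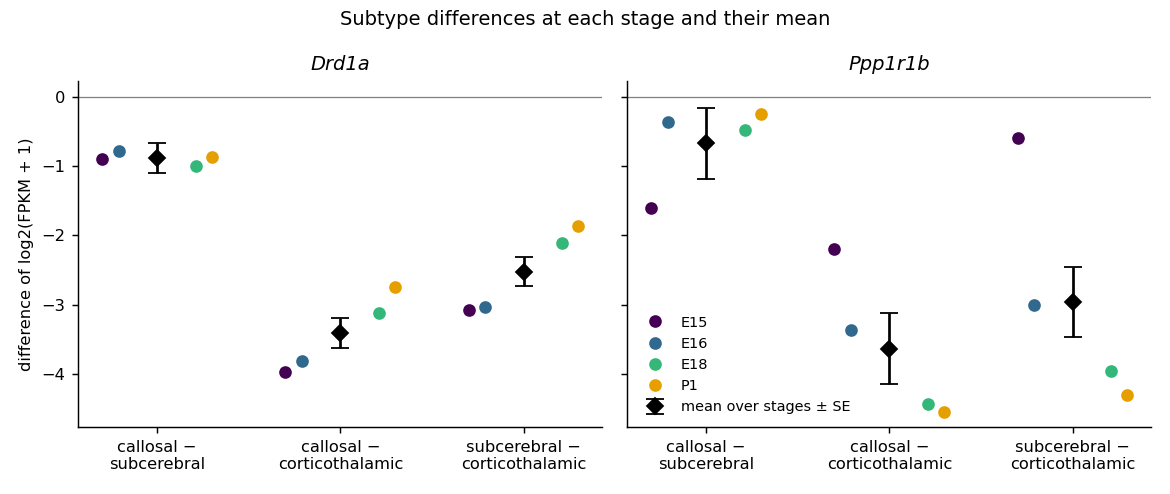
Differences of log2(FPKM + 1) between pairs of subtypes for Drd1a and Ppp1r1b (y axis), with a coloured point for each stage and a black diamond for the limma mean over stages with its standard error. Drd1a differences between callosal and subcerebral neurons sat close together, while those with corticothalamic neurons shrank from E15 to P1 for Drd1a and widened for Ppp1r1b.

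The stage course of Ppp1r1b ran in opposite directions in the subtypes. From E15 to P1 the corticothalamic level was multiplied by 1.72, while the subcerebral level was divided by 8.22 and the callosal level by 3.19. Most of the subcerebral change lay between E15 and E16, a ratio of 4.89. The gap between corticothalamic and subcerebral levels was 1.52 times at E15, 8.40 at E16, 16.5 at E18 and 21.5 at P1, and that between corticothalamic and callosal levels went from 4.72 to 26.0 times. The linear stage term was higher in corticothalamic than in subcerebral neurons by 1.21 ± 0.19 per stage step (limma adjusted p = 0.0153), and higher than in callosal neurons by 0.81 ± 0.19 (limma adjusted p = 0.0438). Without E15 these differences were 0.65 ± 0.13 (limma adjusted p = 0.0613) and 0.59 ± 0.13 (limma adjusted p = 0.0706). The difference from callosal neurons missed the threshold in 7 of 10 alternatives, among them no filter on low values (limma adjusted p = 0.0859) and quantile normalization (limma adjusted p = 0.106). The high E15 subcerebral value stood in the group that also held the corticothalamic markers described above, with Tle4 at 65.3 FPKM there and at 23.0, 11.6 and 11.3 FPKM at the later stages. Their part in the Ppp1r1b value was not tested. Over the 3 subtypes together Ppp1r1b differed by -1.24 ± 0.59 between P1 and E15 and did not pass (limma adjusted p = 0.0939). This value rested on single groups: it was -2.08 without the E15 corticothalamic value (limma adjusted p = 0.0021), -1.73 without the P1 corticothalamic value (0.0423), -0.50 without the E15 subcerebral value (0.398) and -0.84 without the P1 subcerebral value (0.308).

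The proportion of DARPP-32 transcript to D1 receptor transcript differed between the subtypes and, outside corticothalamic neurons, between stages. The ratio of Ppp1r1b to Drd1a was between 8.32 and 11.1 in corticothalamic neurons at the 4 stages. It went from 90.3 at E15 to 2.07 at P1 in subcerebral neurons, and from 1111 to 3.77 in callosal neurons, where Drd1a was near 0 at E15. Over the 12 groups the log2(FPKM + 1) values of the 2 genes had a Pearson r of 0.718, given as a description. Ppp1r1b was the 594th of 12897 named genes in likeness to Drd1a.

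The named genes most like Drd1a over the 12 groups were Rimbp2, a gene of the presynaptic active zone, with r = 0.994, the liprin gene Ppfia4 (0.973), Pdzd2 (0.972), the transporter gene Abca8a (0.967) and the bicarbonate transporter gene Slc4a10 (0.962). Rimbp2 was 43.9 to 59.4 FPKM in corticothalamic neurons and 3.71 to 14.5 FPKM in callosal neurons. Those most like Ppp1r1b were Pde9a, a cyclic GMP phosphodiesterase gene (0.981), Agap1 (0.980), the neurexophilin gene Nxph4 (0.975), the neurotrophin receptor gene Ngfr (0.972) and the receptor tyrosine kinase gene Ror2 (0.972). Ngfr, itself one of the 8 corticothalamic markers, was 9.08, 0.825, 0.285 and 0.230 FPKM in subcerebral neurons from E15 to P1. The points of each correlation share their libraries.

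Nxph4 is also a marker of subplate neurons, the deepest cortical neurons. Of 12 subplate markers matched, 8 were tested. In corticothalamic neurons 5 were higher than in callosal and 4 higher than in subcerebral neurons, with 0 lower in either case. The sum of the 12 was 91.6 to 282 FPKM in corticothalamic, 20.9 to 219 FPKM in subcerebral and 17.0 to 44.1 FPKM in callosal neurons. The highest subcerebral sum, at P1, held Pcp4, also one of the subcerebral markers, at 180 FPKM and Tmem163 at 33.1 FPKM. Nxph4 was 3.03 FPKM and Ctgf 0.223 FPKM in that group. In corticothalamic neurons at E15, Cplx3 and Ctgf were 0.0452 and 0.485 FPKM, while Nxph4 was 53.4, Nr4a2 26.9, Pcp4 25.8, Kcnab1 14.3 and St18 4.15 FPKM. At P1 Cplx3 and Ctgf were 7.58 and 30.9 FPKM. The part of subplate neurons in the levels of the members was not tested. Among the interneuron markers 13 were tested, of which 1 passed in each subtype comparison. Their sum was 103 to 458 FPKM in callosal, 22.7 to 439 FPKM in subcerebral and 115 to 764 FPKM in corticothalamic neurons, with Npy at 394, 415 and 687 FPKM of the highest sums. In E15 callosal neurons 9 of the 15 listed interneuron markers had their highest value, where 9.24% of all genes above 0 did, among them Dlx1 at 20.0 FPKM (at most 6.32 FPKM elsewhere) and Lhx6 at 16.3 FPKM (at most 3.91 FPKM elsewhere). That group had the highest callosal Ppp1r1b and the lowest callosal Drd1a, and the part of interneurons in these values was not tested.

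The proteins that couple dopamine receptors to their effectors were next read from a list of 21 genes, all tested. Between callosal and corticothalamic neurons 4 were higher and 5 lower in callosal neurons, with a list median of -0.09 against 0.01 over all genes tested. Rgs9, a GTPase-accelerating protein for receptor-coupled G proteins, differed by -1.67 ± 0.13. It was 14.9 to 25.7 FPKM in corticothalamic, 8.58 to 11.5 FPKM in subcerebral and 3.35 to 8.86 FPKM in callosal neurons. Adrbk2, a receptor kinase gene, differed by -1.69 ± 0.29, and Caly, which encodes the D1 receptor-interacting protein calcyon, by -1.41 ± 0.18. Between callosal and subcerebral neurons 0 were higher and 7 lower in callosal neurons, led by the G-protein subunit gene Gng7 at -1.16 ± 0.30, with a median of -0.18 against -0.01. Subcerebral minus corticothalamic neurons gave 4 higher and 3 lower (median 0.12 against -0.0032), with Gng7 at 1.78 ± 0.30. Gnal, which encodes the Golf subunit, was 20.7 to 56.7 FPKM over the 12 groups and passed none of the subtype comparisons. From E15 to P1, 13 genes rose and 1 fell, or 66.7% against 67.4% of all genes, with Caly at 2.96 ± 0.21 and Ric8b at -0.62 ± 0.09.

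Enzymes of cyclic AMP and protein kinase A signalling were split. Of 29 tested, 3 were higher and 9 lower in callosal than in corticothalamic neurons (median -0.11). In subcerebral neurons 3 were higher and 9 lower than in corticothalamic neurons (median -0.20). That is 41.4% of the list in each case, against 31.3% and 27.5% of all genes. Adcy1, a calmodulin-stimulated adenylyl cyclase gene, differed by -2.99 ± 0.29 and -1.39 ± 0.29 in these comparisons. Its level in corticothalamic neurons was 81.7, 128, 150 and 181 FPKM from E15 to P1. The anchoring protein gene Akap7 differed by -2.45 ± 0.22 and -1.92 ± 0.22, and the phosphodiesterase gene Pde7b by -1.51 ± 0.22 and -1.09 ± 0.22. In the other direction Prkar1b, a regulatory subunit of protein kinase A, was higher in callosal neurons by 1.47 ± 0.19 and in subcerebral neurons by 1.01 ± 0.19, and the phosphodiesterase gene Pde4b by 1.30 ± 0.42 and 1.82 ± 0.42. Adcy5, the main adenylyl cyclase gene of the striatum, lay between 11.8 and 24.1 FPKM and was lower in subcerebral than in corticothalamic neurons by -0.42 (limma adjusted p = 0.0451). Callosal minus subcerebral neurons gave 4 higher and 3 lower, among them Pde1b at 0.89 ± 0.19 and Pde1a at -2.02 ± 0.60. Pde10a was between 12.4 and 28.8 FPKM in all groups. From E15 to P1, 13 rose and 6 fell, or 65.5% against 67.4% of all genes, with Akap7 at 3.40 ± 0.25 and Creb1 at -1.25 ± 0.08.

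Kinases, phosphatases and relatives of DARPP-32 followed. Of 23 tested, 4 were higher and 1 lower in callosal than in corticothalamic neurons, or 21.7% against 31.3% of all genes. Cdk5r1 and Cdk5r2, the activators of the kinase Cdk5, were higher in callosal neurons by 0.59 ± 0.06 and 0.67 ± 0.11, and the one lower gene was Arpp21, which encodes another cyclic AMP-regulated phosphoprotein, at -0.80 ± 0.26. Between subcerebral and corticothalamic neurons 2 were higher and 2 lower, the latter including Ppp3ca, a catalytic subunit of calcineurin, which dephosphorylates DARPP-32, at -0.36 ± 0.07. Between callosal and subcerebral neurons 6 were higher and 2 lower in callosal neurons, or 34.8% against 29.3% of all genes, led by the protein phosphatase 1 gene Ppp1cb at 0.41 ± 0.05 and Ppp1r9b at 0.43 ± 0.08. Ppp1ca, another catalytic subunit of protein phosphatase 1, was 67.8 to 139 FPKM and passed none of the subtype comparisons. Ppp1r1a, which encodes the related phosphatase inhibitor-1, was 12.4 to 59.0 FPKM and passed none of them either. It rose by 1.78 ± 0.15 from E15 to P1, when 13 of the 23 rose and 4 fell, or 73.9% against 67.4% of all genes.

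Th, which encodes tyrosine hydroxylase, the first enzyme of dopamine synthesis, did not exceed 0.0417 FPKM, and the dopamine transporter gene Slc6a3 did not exceed 0.0548 FPKM. The vesicular monoamine transporter gene Slc18a2 was 0.883 FPKM in callosal neurons at E18 and 1.72 FPKM at P1, and at most 0.311 FPKM in the 10 other groups. Pts and Qdpr, of the cofactor pathway, were 7.51 to 13.03 FPKM and 14.5 to 47.1 FPKM. Of 13 genes of synthesis, transport and breakdown, 4 were tested, and the monoamine oxidase gene Maoa was lower in callosal and in subcerebral than in corticothalamic neurons, by -1.08 ± 0.11 and -0.52 ± 0.11. Its level was 10.4 to 13.8 FPKM in corticothalamic neurons.

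Other monoamine receptors were read beside the dopamine receptors. Of 23 listed genes 10 were tested, and in callosal neurons 1 was higher and 5 lower than in corticothalamic neurons (median -0.72). Serotonin receptor genes Htr1f and Htr6 were lower in callosal neurons by -1.80 ± 0.22 and -1.54 ± 0.18, and lower in subcerebral neurons by -1.32 ± 0.22 and -1.33 ± 0.18, each relative to corticothalamic neurons. The beta-adrenergic receptor gene Adrb1 was lower in callosal than in corticothalamic neurons by -2.11 ± 0.25 and lower than in subcerebral neurons by -2.28 ± 0.25. Adra2c, an alpha-adrenergic receptor gene, was higher in callosal neurons by 0.93 ± 0.22 and 1.61 ± 0.22 in the same comparisons. For the serotonin receptor gene Htr1a, callosal minus subcerebral was -0.92 ± 0.22 and subcerebral minus corticothalamic was 0.81 ± 0.22. In corticothalamic neurons Adrb1 was 15.7 FPKM at E15, beside Drd1a at 15.1 FPKM, and at P1 Adra2a was 9.12 FPKM and Htr1f 5.34 FPKM.

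**Figure D4:**
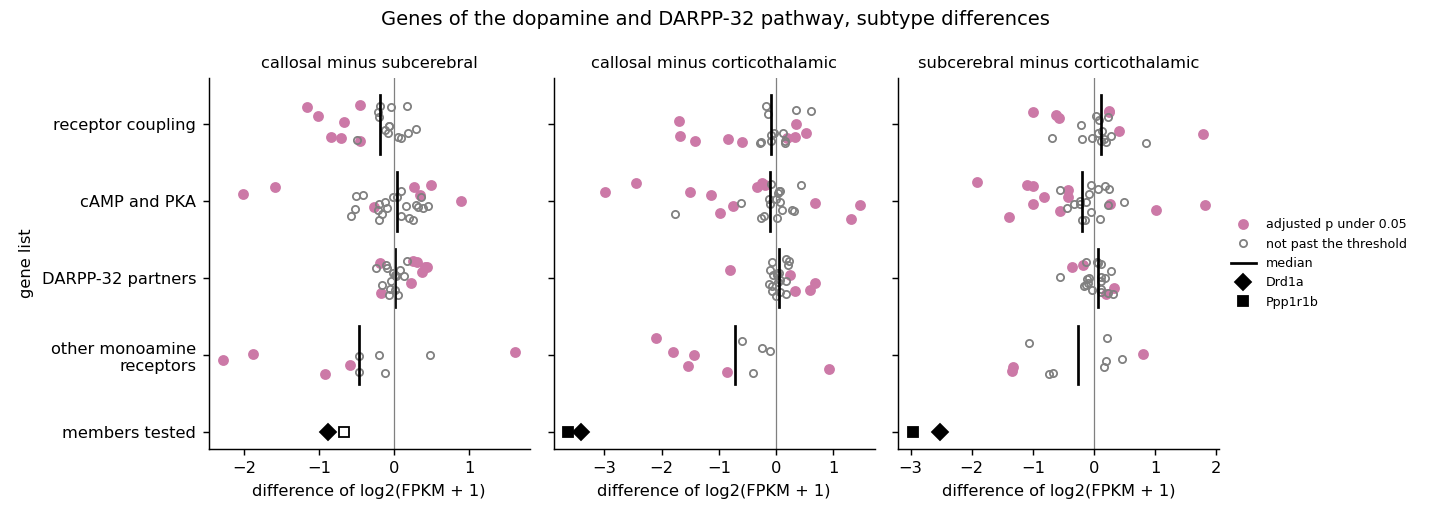
Differences of log2(FPKM + 1) between subtypes (x axis) for tested genes of 4 lists and for Drd1a and Ppp1r1b (rows), from the additive limma fit. Filled circles passed an adjusted p of 0.05, open ones did not, vertical bars are list medians, and black symbols are the members, filled where they passed. Single genes ranged widely within each list, with Adcy1 at -2.99 and Akap7 at -2.45 for callosal minus corticothalamic neurons, where Drd1a was at -3.41 and Ppp1r1b at -3.63.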

How the data were processed

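RNA of 3 sorted neuron subtypes at 4 stages was measured in 24 libraries made with poly(A) selection, per the labels' protocols. The authors used TopHat2 and Cufflinks with genome build mm9, per the submitters' processing notes; the sources used here do not give versions, annotation, scaling or how the 2 libraries of a group were pooled. The header names no unit, and the deposited values were read as FPKM, the unit Cufflinks reports. Values were fitted in R 4.3.3 by limma 3.58.1 (trended, robust moderation with statmod 1.5.0) on log2(FPKM + 1), stage and subtype additive, 6 residual degrees of freedom. Genes reaching 1 FPKM in 2 or more groups entered, with Benjamini-Hochberg adjustment at 0.05 over all genes. The stage trend fit added linear terms and so had fewer residual degrees of freedom. Both fits were tested on simulated data. Fold changes on this scale understate changes of low genes. Named genes were all 6 members, at most 3 genes per direction of each pathway list, fixed pathway genes and the 5 most alike by Pearson r. Members and the 15 lists were chosen with earlier results of these data known, and the stage trend after the values were seen. Of 13 subplate genes 12 were matched, and of the other lists all.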

Additional observations from a re-analysis of the deposited data

Results flagged for a closer look

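The stage course of Ppp1r1b pointed in opposite directions in the subtypes. On the log2(FPKM + 1) scale, P1 minus E15 was -1.57 in callosal and -2.92 in subcerebral neurons and 0.78 in corticothalamic neurons, with 1 value per group and stage. The difference in linear trend was tested after the values were seen: corticothalamic minus callosal was 0.81 per stage step (limma adjusted p = 0.0438) and corticothalamic minus subcerebral 1.21 (limma adjusted p = 0.0153). Drd1a differed the other way, by -0.44 (limma adjusted p = 0.0204) and -0.45 (limma adjusted p = 0.0165), with values that were higher at P1 than at E15 in all 3 subtypes.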

How the results depend on the processing

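No paired analysis was possible because the table holds 1 pooled value per group, and for the same reason no library could be left out. Depth is unknown, so the precision of values under 1 FPKM cannot be given. The Drd1a and Ppp1r1b differences between callosal and corticothalamic neurons passed in all 23 alternatives run, from -4.91 to -3.22 and from -4.27 to -3.26. The Drd1a difference between subcerebral and corticothalamic neurons passed in all 23 (-3.03 to -2.34), and its stage difference in all 20 (1.07 to 2.31). Between callosal and subcerebral neurons Drd1a passed in 18 of 23 alternatives. It missed the threshold at -0.92 without E16, -0.85 without E18, -0.84 without the E16 callosal value, -0.80 without the E18 subcerebral value and -0.78 without the P1 subcerebral value. Between subcerebral and corticothalamic neurons Ppp1r1b missed it at -2.95 without E16, -2.63 without E18 and -2.52 without P1. Its stage difference passed at -2.08 without the E15 and -1.73 without the P1 corticothalamic value, and was -0.50 without the E15 and -0.84 without the P1 subcerebral value, not passing. Members passing were 0 of 2 between callosal and subcerebral neurons without E16 or E18, by limma, with Drd1a at adjusted p of 0.0689 and 0.0982. They were 1 between subcerebral and corticothalamic neurons without E16, E18 or P1. With no filter, 4 of 6 passed between callosal and corticothalamic neurons (19.2% of genes in that fit) and 3 of 6 between subcerebral and corticothalamic neurons (13.6%). Single values were left out by choices made after seeing the data, and the cause of these changes was not tested. With no filter and no E18 subcerebral value, callosal minus subcerebral went from -0.0019 to 0.0018 for Drd4 and from -0.0063 to 0.019 for Drd5. Genes passing between callosal and subcerebral neurons were 4093, but leaving out E15 gave 6154, E16 gave 1108, E18 gave 1013 and P1 gave 2244, and those subtypes alone 2603. Between callosal and corticothalamic neurons they were 4361, but 1859 without E16 and 2013 without E18. Between subcerebral and corticothalamic neurons they were 3835, but leaving out E15 gave 6244, E16 gave 366, E18 gave 259 and P1 gave 1091, and those subtypes alone 2463. The Ppp1r1b trend difference from callosal neurons missed the threshold in 7 of 10 alternatives (adjusted p up to 0.241), and that from subcerebral neurons in 3 of 10 (up to 0.146).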
